A study of Rattus norvegicus with 8 samples.

Results

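The AP-1 and immediate early transcription factors are 10 genes, namely Fos, Fosb, Fosl1, Fosl2, Jun, Junb, Jund, Atf3, Maff and Egr1, of 32883 genes counted in primary rat nucleus pulposus (NP) cells. They were taken by gene symbol, and each symbol had 1 row of counts. NP cells populate the soft centre of the spinal disc. The cells were isolated from adult Sprague Dawley rats, kept in DMEM with 10% FBS at 37 °C and 5% CO2, and transduced with lentiviruses. The Sirt6-Ctrl group (genotype label SIRT6Ctrl/ShCtrl, n = 4, libraries S1 to S4) received a control ShRNA, and the Sirt6-KD group (SIRT6KD/ShSirt6, n = 4, libraries S5 to S8) received a mixture of ShSirt6 clones, so that both groups carried virus and were grown in serum and puromycin. The knockdown acted on the whole culture and left part of the Sirt6 RNA in place. Each library is a bulk sample, in which fewer cells of a type and less RNA per cell cannot be told apart.

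AP-1 is a dimer of basic leucine zipper proteins. A Fos protein binds DNA only together with a partner, usually a Jun protein, whereas Jun proteins also pair with each other. Immediate early genes are transcribed within minutes of a stimulus such as serum, a growth factor or stress, without new protein synthesis. Their products then act on slower genes, among them proteases and cytokines of the matrix. c-Fos and FosB have strong activation domains, the Fos-related antigens Fra-1 (Fosl1) and Fra-2 (Fosl2) lack them and persist longer, c-Jun is a strong activator, and JunB and JunD are weaker ones. ATF3 and MafF belong to neighbouring basic leucine zipper families, and EGR1 is a zinc finger protein that binds GC-rich sites.

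The promoters of these genes are known for short response elements, and the windows of the Fos family genes that rose and of Jund, which fell, are printed here so that they can be compared. RefSeq windows of 300 bases, from 250 before to 50 after the gene start on the GRCr8 assembly, matched 7 of the 10 genes by symbol, and the other entries, Fos, Jun and Atf3, were missing. Both strands were searched for the cAMP response element (CRE, TGACGTCA), the AP-1 site (TGACTCA), the EGR site (GCGTGGGCG or GCGGGGGCG), the TATA box (TATAAA), the GC box (GGGCGG) and the CArG box. Capitals mark the matches.
Fosb (chr1:88089135-88089434, GRCr8, minus strand): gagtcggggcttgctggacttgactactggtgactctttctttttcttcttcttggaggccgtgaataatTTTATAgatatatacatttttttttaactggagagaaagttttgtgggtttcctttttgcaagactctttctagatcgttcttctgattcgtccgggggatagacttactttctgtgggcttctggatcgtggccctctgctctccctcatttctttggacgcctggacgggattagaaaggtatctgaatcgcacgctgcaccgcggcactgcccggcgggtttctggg
Fosl1 (chr1:212183635-212183934, GRCr8, plus strand): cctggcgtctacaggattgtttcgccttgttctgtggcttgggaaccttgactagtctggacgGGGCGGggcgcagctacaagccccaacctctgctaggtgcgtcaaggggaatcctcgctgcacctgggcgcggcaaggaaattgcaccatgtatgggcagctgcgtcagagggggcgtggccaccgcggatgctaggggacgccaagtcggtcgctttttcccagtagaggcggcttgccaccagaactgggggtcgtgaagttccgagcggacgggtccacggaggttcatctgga
Fosl2 (chr6:30039220-30039519, GRCr8, minus strand): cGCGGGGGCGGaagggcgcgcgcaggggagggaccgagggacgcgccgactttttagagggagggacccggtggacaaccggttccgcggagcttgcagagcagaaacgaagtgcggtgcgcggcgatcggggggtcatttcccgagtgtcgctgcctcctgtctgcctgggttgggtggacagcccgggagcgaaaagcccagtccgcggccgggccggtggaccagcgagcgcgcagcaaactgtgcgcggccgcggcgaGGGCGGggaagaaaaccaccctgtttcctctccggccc
Jund (chr16:18769722-18770021, GRCr8, minus strand): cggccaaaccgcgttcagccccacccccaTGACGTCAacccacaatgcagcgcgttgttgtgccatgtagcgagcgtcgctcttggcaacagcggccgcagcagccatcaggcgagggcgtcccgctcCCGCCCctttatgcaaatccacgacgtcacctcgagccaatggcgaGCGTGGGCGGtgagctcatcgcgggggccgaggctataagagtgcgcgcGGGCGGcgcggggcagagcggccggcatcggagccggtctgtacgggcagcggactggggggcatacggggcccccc
The Jund window held a CRE that began 221 bases before the start, an EGR site at 76 bases and 3 GC boxes, 1 of which overlapped the EGR site. A CRE was present in 1.83% of all 33469 windows and an EGR site in 3.2%. The Fosl2 window held 2 GC boxes and, at its far end, an EGR site overlapping 1 of them. The Fosl1 window held 1 GC box, and the Fosb window held a TATA box on the opposite strand, 180 bases before the start. GC boxes were present in 33.1% and TATA boxes in 14.2% of windows. Of the windows not printed, that of Egr1 held 2 CArG boxes, an element bound by serum response factor (1.64% of windows). That of Maff held a CRE, an EGR site and 3 GC boxes, and that of Junb held a TATA box 49 bases before the start. None of the 7 windows held the AP-1 site, which was present in 4.63% of all windows. A match of letters is a description and not a measured site.

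Total counts were 31994838 to 40124813 per library. Levels are given as CPM (counts scaled to the library size after TMM normalization, which sets libraries to a common middle), of which 0.0727 to 0.0928 equals 3 counts. Sirt6 itself was counted 1755 to 1964 times per library in Sirt6-Ctrl and 695 to 753 times in Sirt6-KD, a log2 fold change (log2 FC, Sirt6-KD over Sirt6-Ctrl) of -1.35 ± 0.13 SE (edgeR's quasi-likelihood test, adjusted p = 0.000713). Synthetic ERCC spike-in RNAs took 6.27% of the counts of S1 and 9.80% of S2, against 2.15% to 3.08% in the other libraries. Of 9 NP and cartilage markers, Krt8 (log2 FC -1.32) and Car3 (-2.70) were called lower, Slc2a1 (1.27) was called higher, and Foxa2, Cd24, Acan, Sox9, Basp1 and Cdh2 did not pass (edgeR). Foxa2 had at most 1 count in S1, S2, S4 and S6, Acan was at 4.54 to 55.7 CPM and Sox9 at 4.68 to 16.6 CPM, and Krt18, Krt19, T, Col2a1 and Shh were not analysed here. The summed level of 8 annulus and fibroblast markers was 14543 to 27497 CPM in Sirt6-Ctrl and 8680.2 to 18523 CPM in Sirt6-KD. S4 and S8 were the highest of their groups, and Col1a1 made up most of the sum in every library (25213 CPM in S4, 17465 CPM in S8). Col3a1, Thy1, Scx and Mkx were also highest in S4 and S8, while Col1a2, Pdgfra and Lum were not highest in both. Of the 8 markers, Col3a1 (log2 FC -1.38) and Scx (-1.20) were called lower, 7 had negative values, and the median was -0.70. The part of these marker changes in the results that follow was not tested. The 3 immune markers with a row (Cd14, Cd68 and Csf1r) summed to at most 29.7 CPM.

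To determine how these factors responded to Sirt6 knockdown, each gene was tested with edgeR across all genes and called at an adjusted p below 0.05 with a fold change above 1.5. All 10 were tested. Fosb, Fosl1, Fosl2 and Egr1 rose, Jun and Jund fell, and Fos, Junb, Atf3 and Maff did not pass. The 4 of 10 that rose stand beside 8.02% of all 13250 genes tested, the 2 that fell beside 10.7%, and both together beside 18.7% called in either direction. In 7 of 10 the groups did not overlap, against 30.4% of all genes. The 10 factors had a median log2 FC of 0.29 (0.54 without S4), beside -0.016 over all genes tested. These 6 calls held with each library left out in turn and without S1 and S2.

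**Figure D1:**
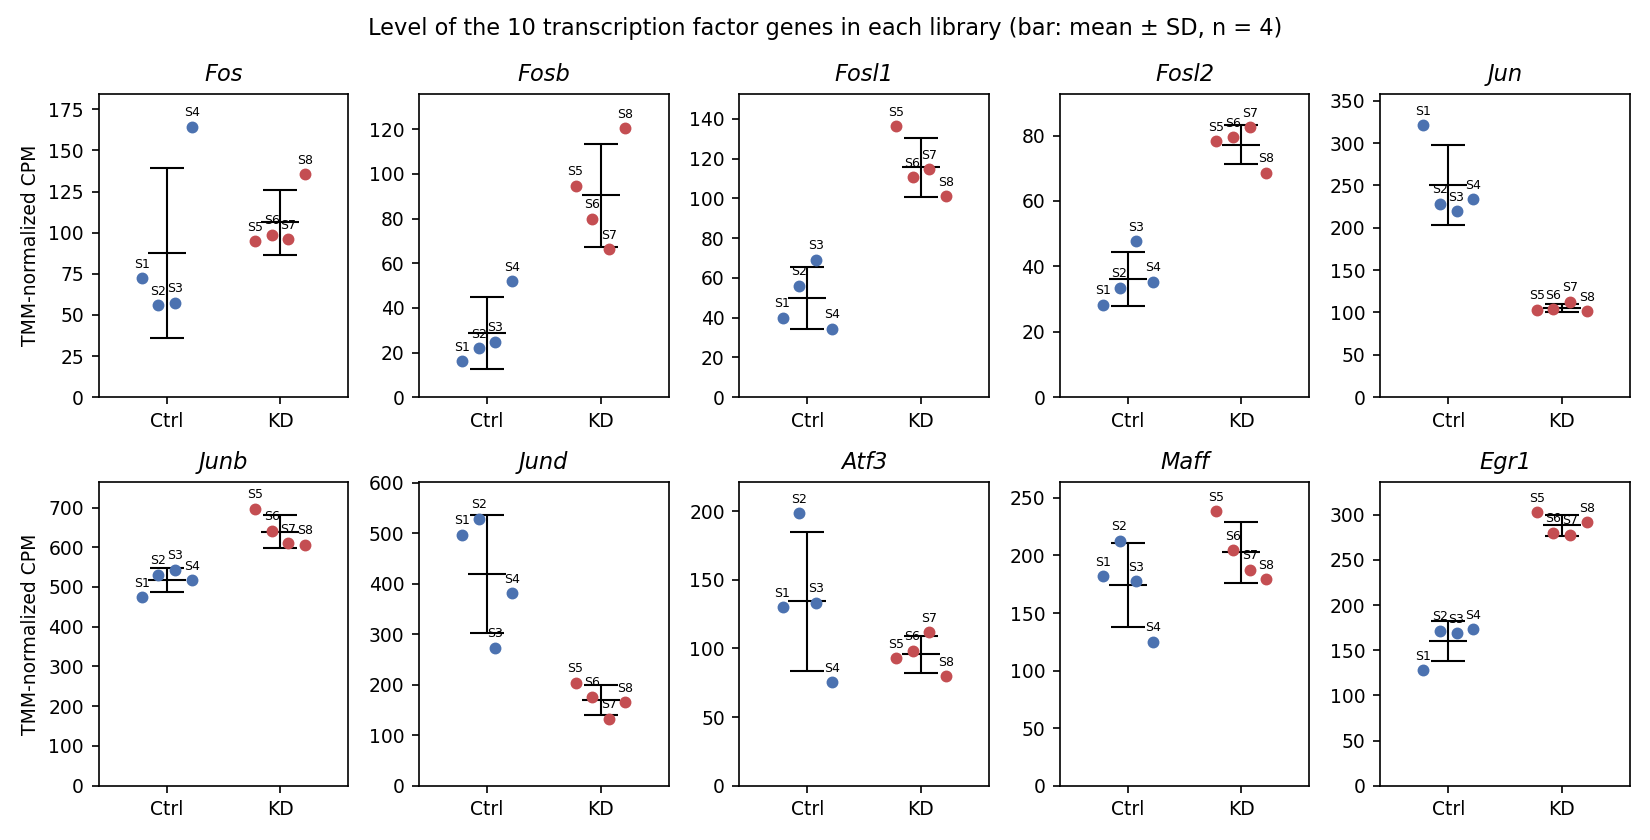
Level of each gene in each library, in TMM-normalized CPM on a linear axis from 0, for Sirt6-Ctrl (blue, S1 to S4) and Sirt6-KD (red, S5 to S8), with black bars for the mean and SD of 4 libraries. Fosb, Fosl1, Fosl2, Junb and Egr1 lie higher in every Sirt6-KD library, Jun and Jund lie lower, and Fos, Atf3 and Maff overlap.

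In the Fos family, 3 of 4 genes rose. Fosb (ENSRNOG00000046667) encodes the Fos protein FosB, and its counts cover all transcript forms of the gene. Its level was 16.2, 21.96, 24.8 and 52.0 CPM in S1 to S4 and 94.8, 79.9, 66.4 and 121 CPM in S5 to S8. Every Sirt6-KD library lay above every Sirt6-Ctrl library, with S4 and S8 the highest of their groups. The means were 28.7 ± 15.9 and 90.4 ± 23.2 CPM (SD, n = 4 per group), a 3.14-fold rise (log2 FC 1.65 ± 0.34 SE, edgeR adjusted p = 0.0101).

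Fosl1 (ENSRNOG00000020552) encodes Fra-1, a Fos protein of migrating and wound-edge cells. Its level was 40.0, 56.1, 69.1 and 34.3 CPM in S1 to S4 and 136, 111, 115 and 101 CPM in S5 to S8. The groups did not overlap, and S4, the highest control for Fosb, was the lowest for Fosl1. Fosl1 rose 2.32-fold from 49.9 ± 15.8 to 116 ± 14.9 CPM (SD, n = 4 per group; log2 FC 1.21 ± 0.22 SE, edgeR adjusted p = 0.00604). Fosl2 (ENSRNOG00000052357), which encodes Fra-2, a factor of cartilage and bone cells, was at 28.2, 33.5, 47.6 and 35.3 CPM in S1 to S4. It was at 78.2, 79.4, 82.6 and 68.7 CPM in S5 to S8, above all controls. It rose 2.14-fold from 36.2 ± 8.21 to 77.2 ± 5.99 CPM (SD, n = 4 per group; log2 FC 1.09 ± 0.17 SE, edgeR adjusted p = 0.004025).

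Fos (ENSRNOG00000008015) encodes c-Fos, the first described partner of c-Jun. Its level was 72.2, 56.1, 57.3 and 164 CPM in S1 to S4 and 94.7, 98.7, 95.9 and 135.5 CPM in S5 to S8. The groups overlapped because S4 lay above every other library, while the other controls lay below every Sirt6-KD library. The means were 87.5 ± 51.8 and 106 ± 19.6 CPM (SD, n = 4 per group), and the log2 FC of 0.28 ± 0.32 SE did not pass (edgeR adjusted p = 0.575). The value rested on S4, since without it the log2 FC was 0.78 with a call (edgeR adjusted p = 0.017), and without S1 and S2 it was -0.051 (adjusted p = 0.942). The adjusted p lay between 0.017 and 1 across the alternatives. S4 and S8 also had the highest summed annulus and fibroblast markers of their groups, a sum made up mostly of Col1a1. The part of this in the Fos level was not tested.

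In the Jun family, Jun and Jund fell and Junb did not pass. Jun (ENSRNOG00000026293), which encodes c-Jun, was at 321, 228, 219.9 and 233 CPM in S1 to S4 and at 103, 104, 113 and 102 CPM in S5 to S8. The Sirt6-KD libraries lay within a narrow band at about the same level, below all controls, and S1 was the highest control. Jun was 2.38-fold lower in Sirt6-KD, at 250.6 ± 47.2 and 105 ± 5.01 CPM (SD, n = 4 per group; log2 FC -1.25 ± 0.145 SE, edgeR adjusted p = 0.00143).

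Jund (ENSRNOG00000019568) encodes JunD, a factor present in resting cells. Its level was 496 and 529 CPM in S1 and S2, 273 and 381 CPM in S3 and S4, and 204, 176, 133 and 165 CPM in S5 to S8. All controls lay above all Sirt6-KD libraries, and the 2 controls with a high spike-in share were the highest. Jund was 2.47-fold lower, at 419.6 ± 117 and 169.6 ± 29.3 CPM (SD, n = 4 per group; log2 FC -1.31 ± 0.22 SE, edgeR adjusted p = 0.00483). Without S1 and S2 the log2 FC was -0.93 (edgeR adjusted p = 0.0167, and between 1.73e-06 and 0.735 across the alternatives).

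Junb (ENSRNOG00000042838), which encodes JunB, an immediate early Jun protein, was at 474, 531, 544 and 517 CPM in S1 to S4. In S5 to S8 it was at 696.5, 642, 609.6 and 607 CPM, so that the groups did not overlap. Its log2 FC of 0.31 ± 0.12 SE did not pass (edgeR adjusted p = 0.08985). DESeq2 gave an adjusted p of 0.0221 at a fold still under 1.5, and the alternatives spanned 0.0221 to 1.

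Atf3 (ENSRNOG00000003745), a stress-induced factor that often represses its targets, was at 130.1, 199, 133 and 75.2 CPM in S1 to S4 and 92.7, 98.3, 112 and 79.8 CPM in S5 to S8. The controls spread on both sides of the Sirt6-KD libraries, with S2 the highest and S4 the lowest. The log2 FC of -0.49 ± 0.25 SE did not pass (edgeR adjusted p = 0.18). It was -0.69 with a call without S4 (adjusted p = 0.0293) and -0.23 without S2, and the adjusted p lay between 0.0293 and 0.858 across the alternatives.

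Maff (ENSRNOG00000012886), a small Maf protein with no activation domain, was at 182, 213, 178 and 125 CPM in S1 to S4 and 239, 205, 188 and 179.5 CPM in S5 to S8. The groups overlapped, and the log2 FC of 0.22 ± 0.17 SE did not pass (edgeR adjusted p = 0.393).

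Egr1 (ENSRNOG00000019422), a growth factor-induced zinc finger factor, was at 128, 172, 169 and 173 CPM in S1 to S4 and 303, 280.3, 278 and 292 CPM in S5 to S8. The spread within each group was small beside the distance between them. It rose 1.80-fold from 160.4 ± 21.9 to 288 ± 11.4 CPM (SD, n = 4 per group; log2 FC 0.84 ± 0.13 SE, edgeR adjusted p = 0.00401).

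Because the spike-in share differed between libraries, the changes were also computed with libraries scaled to their spike-in counts, which moved the middle of all tested genes to a log2 FC of 0.94. On that scale none of the 10 genes was called (edgeR, lowest adjusted p = 0.0711). At an unadjusted p below 0.05, 6 of 10 were higher and 0 lower, so Jun and Jund were not among these 6. Of the related lists described below, 23 of 32 immediate early genes and 14 of 26 upstream genes were also higher at that cut, with 0 lower. The share of all genes at that cut is not given here. Relative to that median, the log2 fold change was 1.46 for Fosb, 1.22 for Fosl1, 1.02 for Fosl2 and 0.83 for Egr1. It was -1.19 for Jun and -1.13 for Jund, which also had the lowest values before the median was subtracted (-0.24 and -0.19). Atf3 alone among the 10 changed sign, to 0.67, which was -0.28 relative to the median. With DESeq2 size factors, the upper quartile or library totals in place of TMM, all 10 genes kept their direction and the 6 calls held.

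**Figure D2:**
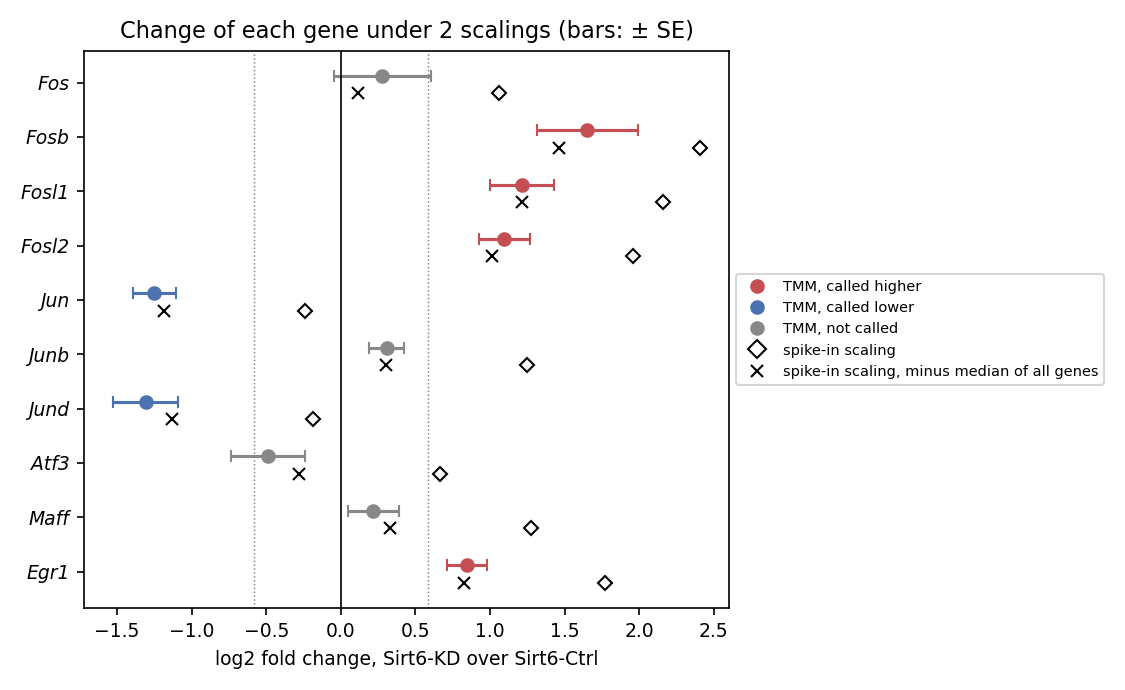
Log2 fold change of each gene, Sirt6-KD over Sirt6-Ctrl, with TMM (circles with bars of 1 standard error, red called higher, blue called lower, grey not called), with spike-in scaling (open diamonds) and with spike-in scaling after subtracting the median of all genes, 0.94 (crosses). Dotted lines mark a 1.5-fold change, and the crosses lie near the circles for every gene, from 1.46 for Fosb to -1.19 for Jun.

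The share of a gene in the counts of its family is taken within a library and does not depend on how libraries are scaled. It is a share of reads, which longer transcripts raise, and was compared between libraries only. Junb made up 36.7% to 52.5% of the Jun family counts in Sirt6-Ctrl and 69.4% to 71.3% in Sirt6-KD. Jun made up 17.7% to 24.9% and 10.3% to 13.2%, and Jund 26.3% to 41.0% and 15.5% to 20.3%. None of these ranges overlapped. The shares of a family add up to its whole, so lower shares of Jun and Jund leave a higher share to Junb. The level of Junb itself did not pass. The ratio of Junb to Jun counts was 1.48, 2.33, 2.47 and 2.21 in S1 to S4 and 6.73, 6.20, 5.41 and 5.97 in S5 to S8, and thus higher in every Sirt6-KD library.

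In the Fos family the share of Fosb was 10.3% to 18.2% in Sirt6-Ctrl and 18.5% to 28.3% in Sirt6-KD, which did not overlap. The share of Fos was 28.8% to 57.5% and 23.4% to 31.8%, which did. The shares of Fosl1 (12% to 34.7%, against 23.8% to 33.7%) and Fosl2 (12.3% to 23.9%, against 16.1% to 23.0%) also overlapped. Between the families, the ratio of summed Fos to summed Jun counts was 0.121, 0.130, 0.192 and 0.253 in S1 to S4 and 0.402, 0.3997, 0.420 and 0.487 in S5 to S8. The mean ratio was 0.174 ± 0.061 in Sirt6-Ctrl and 0.427 ± 0.041 in Sirt6-KD (SD, n = 4 per group). On the TMM scale the summed Fos family counts were 157 to 286 CPM in Sirt6-Ctrl and 359 to 426 CPM in Sirt6-KD. The summed Jun family counts were 1036 to 1292 CPM and 855 to 1004 CPM.

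**Figure D3:**
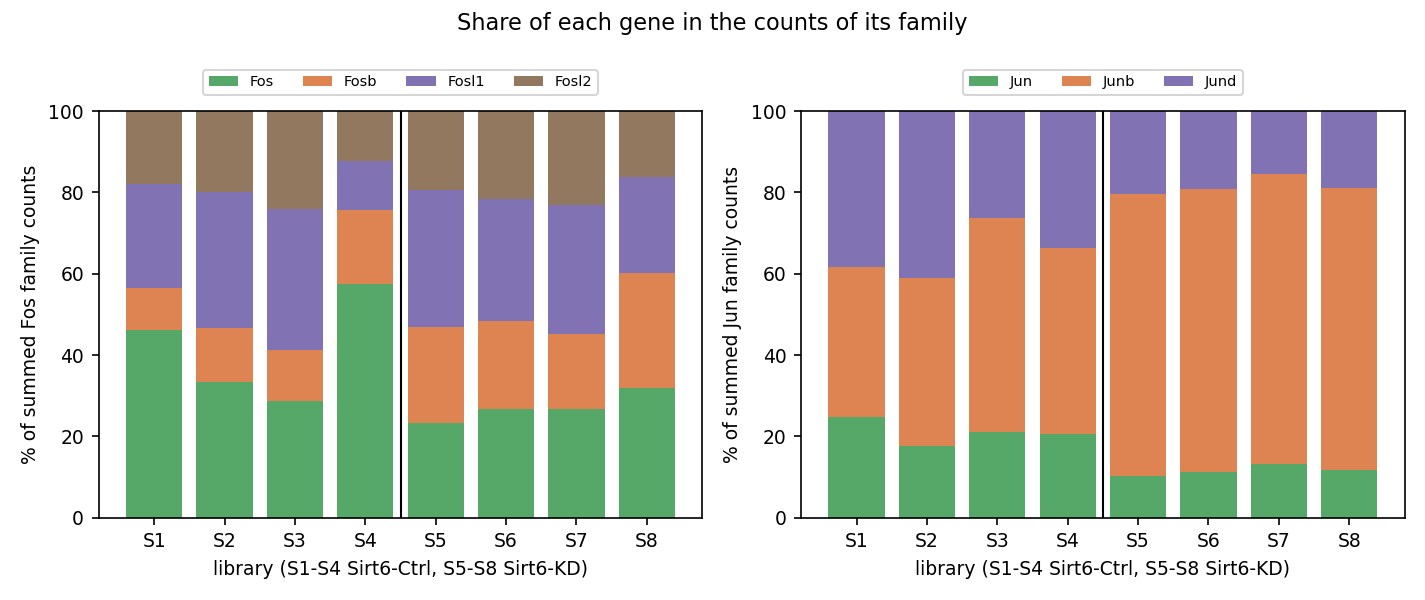
Share (%) of each gene in the summed counts of the Fos family (left) and the Jun family (right) in each library, with a vertical line between Sirt6-Ctrl (S1 to S4) and Sirt6-KD (S5 to S8). Junb takes 69.4% to 71.3% of the Jun family counts in every Sirt6-KD library and at most 52.5% in any Sirt6-Ctrl library, while the share of Fos is highest in S4 (57.5%).

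Other immediate early genes were examined beside the 10 factors. Of 32 tested, 14 were called higher and 1 lower, beside 8.02% and 10.7% of all genes, with a median log2 fold change of 0.48. Those called higher with the smallest p were Csrnp1, Klf10, Nfkbiz, Dusp5 and Zfp36l1, with log2 fold changes of 1.19, 1.28, 1.34, 1.18 and 1.10. Klf10 encodes a TGF-β-induced zinc finger factor, Nfkbiz a nuclear IκB protein, and Dusp5 a nuclear phosphatase of ERK. Rhob, an immediate early GTPase, was the gene called lower, at 505 ± 99.5 and 199 ± 37.7 CPM (SD, n = 4 per group; log2 FC -1.34, adjusted p = 0.00265, edgeR). Egr2, the closest relative of Egr1 in the list, was counted 106 to 419 times in Sirt6-Ctrl libraries and 454 to 695 times in Sirt6-KD, and was called higher (log2 FC 1.51, adjusted p = 0.0243, edgeR). Egr3 was too low to test, with 1 to 5 counts in Sirt6-Ctrl and 9 to 44 in Sirt6-KD. Egr2, Egr3 and the genes of the next sentence were named after their values were seen. Ier2 and Dusp1, classical serum-response genes, did not pass, with log2 FC of 0.058 and 0.16 (edgeR adjusted p = 0.795 and 0.385).

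Of 28 other AP-1-related basic leucine zipper genes, 7 were called higher and 2 lower, beside 8.02% and 10.7% of all genes, with a median log2 FC of 0.20. Together 5 were called without S1, S4, S5 or S7 and 4 without S6. Nfil3, Atf6, Maf, Atf7 and Bach1 had the smallest p among those called higher, with log2 fold changes of 0.63, 0.997, 0.94, 1.87 and 1.57. Atf7 is a relative of Atf2 that pairs with Jun proteins, and Bach1 a repressor that pairs with small Mafs. Ddit3 (CHOP, a factor of the stress response) was 4.56-fold lower, at 614 ± 271 and 135 ± 16.9 CPM (SD, n = 4; log2 FC -2.19, edgeR adjusted p = 0.00244). It was at 792 and 898 CPM in S1 and S2 and at 352 and 414 CPM in S3 and S4, so the controls with a high spike-in share were the highest, as for Jund. Creb3 was the other gene called lower (log2 FC -0.59), and with spike-in scaling its value was 0.36, or -0.58 relative to the median of all genes.

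Among 26 tested kinases and transcription factors upstream of the immediate early genes, 3 were called higher, a share near the 8.02% of all genes, and 23 were not called. Their median log2 FC was 0.30. Those called were Mef2a, Srf, the factor that binds CArG boxes, and Mapk8, which encodes the c-Jun kinase JNK1, with log2 FC of 0.78, 0.62 and 0.92 (edgeR adjusted p = 0.0171, 0.0175 and 0.0206). The number called was 1 without S1, S5 or S7, 0 without S6, 5 without S2 and 7 without S3. Of 13 genes that degrade or restrain AP-1 and EGR proteins, Nab1 and Nab2, corepressors of EGR factors, were called higher (log2 FC 0.80 and 1.04, with overlapping groups for Nab2), and both also stand in the target gene list described next. These 13 genes had a median of -0.10 with TMM, and 0.017 relative to all genes with spike-in scaling.

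Target genes of AP-1 and EGR factors were listed from general knowledge, with earlier results of these data known. Of 33 tested, 14 were called higher and 1 lower, and their median log2 fold change was 0.83, beside 8.02% and 10.7% of all genes. Lif, Cxcl1, Plaur, Mmp3 and Csf1 had the smallest p among those called higher, with log2 fold changes of 2.01, 1.31, 1.05, 1.52 and 1.76. Mmp3 is a matrix metalloproteinase, Plaur the urokinase receptor, and Lif a cytokine of the IL-6 family. The collagenase Mmp1 had at most 1 count in any control library and 10 to 34 in each Sirt6-KD library, so it was at least 6.91-fold higher against 3 counts per library, and the list median was the same with Mmp1 at that bound. Ccnd1 (log2 FC 0.051, adjusted p = 0.813, edgeR) and Timp1 (-0.47, adjusted p = 0.0919, edgeR), named after their values were seen, did not pass.

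Heat shock genes, which respond to proteotoxic stress and to handling of cells, were mostly lower with TMM. Of 10 tested, 8 were called lower, beside 10.7% of all genes, and Hsp90aa1 and Hsp90ab1 did not pass. All 10 had negative values with TMM and a median log2 FC of -1.01, which became 0.11 with spike-in scaling, or -0.83 relative to the median of all genes. Bag3, Dnajb1, Hspd1, Hspb1 and Hspe1 had the smallest p, with log2 fold changes of -1.74, -1.24, -0.91, -1.34 and -1.34. Their summed level was 10780 and 11949 CPM in S1 and S2, 7483 and 7503 CPM in S3 and S4, and 4659 to 5908 CPM in Sirt6-KD. Jund and Ddit3 had the same order of libraries S1 and S2 over S3 and S4 over Sirt6-KD, and its part in their change was not tested.

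**Figure D4:**
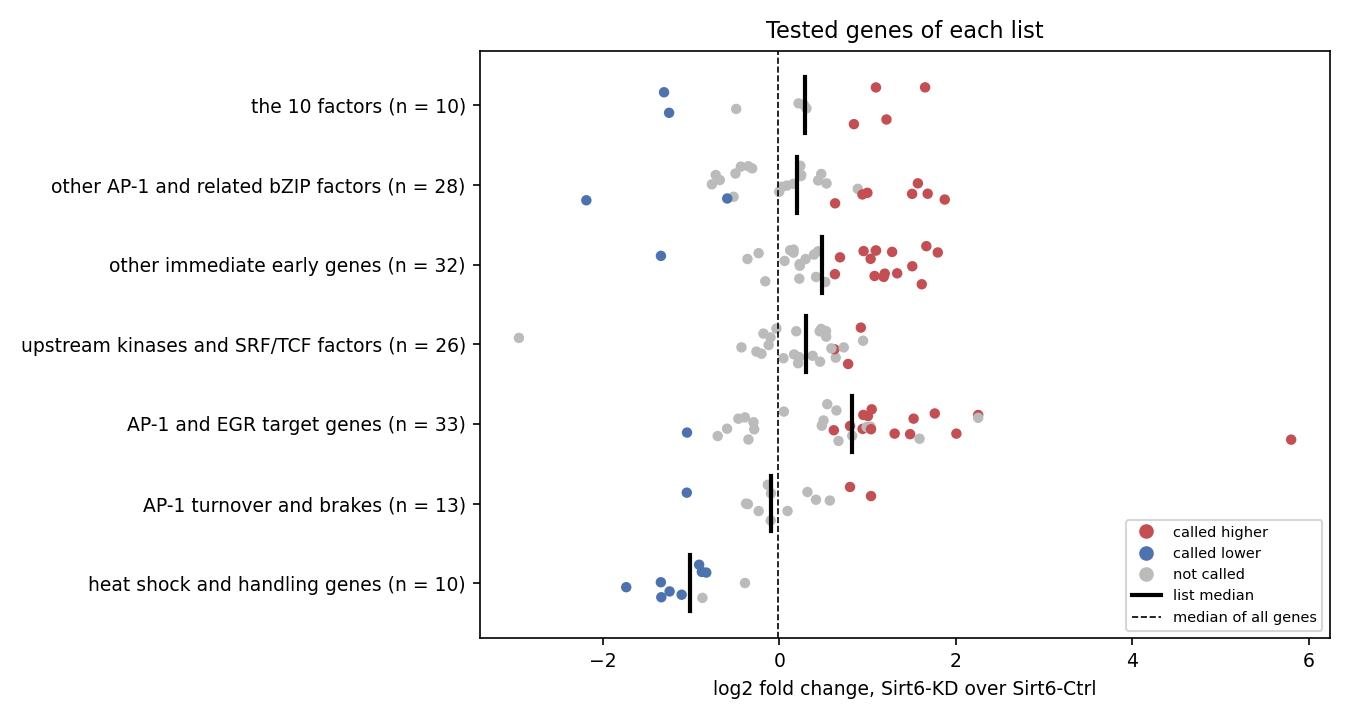
Log2 fold change with TMM, Sirt6-KD over Sirt6-Ctrl, of each tested gene in the 10 factors and in 6 related lists (points, red called higher, blue called lower, grey not called, with vertical jitter for display), with the list median (thick bar) and the median of all genes (dashed line, -0.016). Medians range from -1.01 for heat shock genes (0.11 with spike-in scaling) to 0.83 for AP-1 and EGR target genes, and the point at the far right is Mmp1, whose fitted value is not a bound.

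The genes most like 4 of the factors were found by the root mean square difference of their log2 CPM profiles over 8 libraries, each centred on its own mean. The nearest to Fosl1 were Ccdc50, Ackr3 and Dusp5, at 0.0691, 0.0873 and 0.121. Those nearest to Egr1 were Slc25a24, Icam1 and Cd82, at 0.0663, 0.0819 and 0.0856. Those nearest to Jun were Srebf2, a regulator of cholesterol synthesis, Syvn1 and Dnaja4, at 0.0983, 0.118 and 0.122. Fos had no gene as near, the closest being Melk, Armcx4 and A3galt2 at 0.176, 0.182 and 0.198. Among the 10 factors, Fosl2 was the nearest to Fosl1 and ranked 67 of 13177 genes, and Jund was the nearest to Jun and ranked 367. The factor nearest to Fos was Junb, at rank 1614.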

How the data were processed

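RNA-seq of 4 Sirt6-Ctrl and 4 Sirt6-KD libraries was analysed. The deposited files are a matrix of raw counts with 32975 rows, of which 92 are ERCC spike-ins and the others Ensembl genes, and a table with gene names, a normalized signal, which the deposited counts give when divided by 1 size factor per library, and the log2 fold changes and p-values of the authors' own comparison, which were not used. The submitters' processing notes name Trimmomatic 0.36, STAR 2.5.2b, featureCounts, Subread 1.5.2, DESeq2 and the build Rnor_6.0. Whether counting used strand is not given in the sources used here.

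Groups came from the genotype labels. Rows passing filterByExpr (13313, with 63 spike-ins) were normalized by TMM and tested with glmQLFit and glmQLFTest of edgeR 4.0.16 in R 4.3.3, as a two-sided test with p-values adjusted by Benjamini-Hochberg across these rows. The call threshold was 0.05 for the adjusted p together with a 1.5-fold change. The standard error is the log2 fold change divided by the square root of F. The code was tested on simulated data. Alternatives used DESeq2 1.42.0, limma 3.58.1 (voom), glmTreat, other filters and scalings, and libraries left out. Leaving out S4 and S8 was added after the data were seen.

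The 10 genes and the lists were chosen with earlier results of these data known, so no list was given a test of its own. The genes named are the 10 factors, Sirt6, from each list up to 5 called genes per direction by smallest p, and the 3 genes nearest in profile (prior count 2) to Fos, Fosl1, Jun and Egr1. Markers of NP, annulus, immune, and endothelial and blood cells were checked, and for the last of these Tek alone had a row, at most 0.592 CPM. The series record describes cells of 4 rats with controls of their own, but no label ties a library to a rat or a Sirt6-KD library to its control. The tests are therefore unpaired, and p-values measure the spread between these libraries. No molecular identifiers were counted, so reads are not independent molecules, and the floor of 3 counts covers counting error only. RefSeq coding lengths were not used here, so levels were not compared between genes. Some genes of the lists that the rule covers are not reported here.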

Additional observations from a re-analysis of the deposited data

Results flagged for a closer look

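In 5 of 20 groups of 4 libraries, 1 library stood so far from its nearest neighbour, as a part of the whole range, that Dixon's 95% limit was passed. About 1 group in 20 does so by chance. Among the controls this was S4 at the top for Fos (0.851 of the range), S1 the highest for Jun (0.865) and S1 the lowest for Egr1 (0.904). In Sirt6-KD, S8 was the highest for Fos (0.902) and S7 the highest for Jun (0.833). Without S1, the log2 fold change of Jun was -1.08 and that of Egr1 was 0.78, and both were called.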

How the results depend on the processing

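The 6 called genes kept their direction under every alternative tried, and kept their calls except as follows. With spike-in scaling the log2 fold changes were -0.36 for Sirt6, 2.405 for Fosb, 2.16 for Fosl1, 1.96 for Fosl2, 1.77 for Egr1, -0.24 for Jun, -0.19 for Jund and, reversed, 0.67 for Atf3, none of them called. The factors called then numbered 0 higher and 0 lower. At an unadjusted p below 0.05, 6 of 10 were higher, a cut for which the share of all genes is not given here. The median of the factors was 1.26, beside 0.94 for all tested genes. The genes called were 20 higher and 4 lower, and each of the 6 related lists had 0 called. With glmTreat, a gene must exceed 1.5-fold by the test itself. Fosb (1.65), Fosl1 (1.21), Fosl2 (1.09) and Egr1 (0.84) were then not called, so 0 factors were called higher. At an unadjusted p below 0.05 from glmTreat, 4 of 10 factors were higher and 2 lower. The share of all genes at that cut is not given here. glmTreat called 92 genes higher and 185 lower, and 1 gene of the other basic leucine zipper list, 5 immediate early, 0 upstream, 3 target, 0 brake and 2 heat shock genes. DESeq2 called 1606 genes higher. The upstream list had 6 genes called with DESeq2 or limma-voom and 5 with no fold minimum.

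Without S1 and S2, Fos reversed to -0.051, 709 genes were called lower, and the upstream and brake lists had 1 called each. Without S4 and S8, Fos was called higher (0.65), the median of the factors was 0.50, 545 genes were called higher and 908 lower, and the other basic leucine zipper and upstream lists had 4 and 1 called. With 1 library left out, Fos ranged from 0.12 (without S3) to 0.78 (without S4), Atf3 from -0.69 (S4) to -0.23 (S2) and the median of the factors from 0.28 (S3) to 0.54 (S4). The factors called ranged from 4 to 5 higher and from 2 to 3 lower, the upper values without S4. The genes called ranged from 445 to 1699 higher and from 700 to 1913 lower (lowest without S6, highest without S3, and 552, 491 and 477 higher without S1, S5 and S7), the other basic leucine zipper genes from 4 (without S6) to 13 (without S3), and the upstream genes from 0 to 7. The changes in the shares of Fosl1 and Fosl2 in the Fos family counts ranged from -1.395 to 6.185 and from -0.65 to 3.22 percentage points, negative only without S4. No paired analysis was possible because the labels and count columns number the libraries S1 to S8 and carry no replicate number shared by the groups. Family shares per coding length were not run. The cause of these changes was not tested.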
